A study of Mus musculus with 6 samples.

Results

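Solute carriers are membrane proteins that move ions, metals, nutrients, nucleotides and metabolites across the plasma membrane and the membranes of organelles, and their symbols give a family number and a member number after the letters Slc. The carriers described here were the genes whose symbol starts with Slc and a digit, without the families Slc1, Slc2, Slc3, Slc7, Slc11, Slc16 and Slc38 and without Slc25a20, Slc40a1 and Slc48a1. What remained covers zinc, copper and magnesium carriers, the Slc25 carriers of the inner mitochondrial membrane, nucleotide sugar carriers of the Golgi and the endoplasmic reticulum, ion exchangers, and carriers of vitamins, nucleosides, peptides, lipids and organic ions. A probe on the array was named for 305 such genes. Of these, 160 were measured, meaning that in WGP cells, in medium cells or in both, each of the 2 arrays flagged a probe as well above background, and they were 160 of the 10947 genes tested. Among them Slc9a3r1, Slc9a3r2 and Slc4a1ap are regulatory or adaptor proteins that were named after a carrier and are not carriers themselves.

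The WGP cells were bone-marrow-derived macrophages of C57BL/6 mice 6 to 8 weeks old, labelled as polarized to the M2 state, kept for 6 h in complete DMEM with WGP. The cells they were set against were the same kind of macrophages, from mice of the same strain and age, kept for 6 h in complete DMEM without WGP and called medium below. WGP stands for whole glucan particles, which are pieces of yeast cell wall made mostly of beta-glucan recognized by C-type lectin receptors of macrophages, which engulf them. The agent that polarized the cells, the sex of the mice, and whether the arrays of a group came from separate mice or cultures were not given in the sources used here, so the tests measure the spread between arrays, which may be technical.

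RNA was hybridised to 1-colour Agilent arrays, and 2 independent arrays a group were used although 3 files a group were deposited. In each group, replicate 3 shared the spot signals and backgrounds of replicate 1 at all 44397 spots. Its processed signal was 1.3 times replicate 1 in the WGP group, within 0.488%, and these files were averaged and counted as 1 array. In the medium group it equalled, within 0.695%, the average of the other arrays' processed signals, and that file was left out. The 75th percentile of the signal was 59.2 and 56.1 on the WGP arrays, against 85.8 and 68.6 on the medium arrays, and 46.6% and 45.0% of probes were well above background with WGP, against 50.6% and 46.5% in medium. All 9 macrophage markers with a named probe, among them Adgre1, Csf1r and Itgam, were well above background on all 4 arrays. Of these 9, Cd14 was higher with WGP by 1.17 and Mertk (−1.89), Fcgr1 (−1.19), Mrc1 (−0.64), Aif1 (−0.54) and Lyz2 (−0.47) were lower. Of the markers of other cell types, Ms4a1 and Pax5 of B cells, Cd3d and Cd3g of T cells, Flt3 and Xcr1 of dendritic cells and all 4 mast cell and basophil markers were well above background on no array. Well above background on all 4 arrays, and not past the test, were Cd3e of T cells, Zbtb46 of dendritic cells and Prf1 of NK cells. So were Elane and 3 other neutrophil markers of 6, and Col1a1, Col1a2 and Dcn, 3 of 4 stroma markers. Hba-a1 of erythroid cells was also above background on all 4 arrays and was called lower with WGP (−0.70). Cd79a and Cd79b of B cells, above background on 3 and 2 arrays, were called lower with WGP, and Siglech was called higher. The 5 B cell markers summed to 0.304 and 0.318 times the 75th percentile signal with WGP, against 0.962 and 0.774 in medium, and the 4 dendritic cell markers to 202 and 214 with WGP, against 121 and 80.2 in medium, nearly all of it from Siglech. The part of such cells in the results below was not tested. In these bulk samples, fewer cells of a type and less RNA per cell cannot be told apart.

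A level below is log2 of a probe's processed signal minus the 75th percentile of its array, so that 0 is that percentile, and a change is the mean level with WGP minus the mean level in medium, on the log2 scale. A gene was called changed when its limma adjusted p over all genes tested was under 0.05. Of all genes tested, 40.6% were called in one direction or the other, 23.2% as higher with WGP and 17.4% as lower, and in 75.1% the 2 groups did not overlap. Of the 160 measured carriers, 79 (49.4%) were called, 49 (30.6%) as higher and 30 (18.8%) as lower, and in 135 (84.4%) the groups did not overlap. The carriers' median change was 0.09 and their median absolute change 0.57, against 0.03 and 0.41 over all genes tested. Of the called carriers, 18 were at least 2-fold higher and 14 at least 2-fold lower with WGP, where a carrier not above background in 1 group was counted at its lower bound. By the fitted change alone, without bounds, 19 and 16 of the 160 carriers were called at least 2-fold higher and lower. Over the 10947 genes tested these counts were 881 and 730.

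These counts rested on few arrays. Without WGP replicate 1 there were 52 called carriers and without WGP replicate 2 there were 45, and 39 of the 79 calls held whichever 1 of the 4 arrays was left out. When arrays were scaled to their median, the median change of all genes moved to 0.19, and 61 carriers were called higher and 24 lower, so that higher calls were 71.76% of the carriers' calls and 72.69% of those over all genes, against 62.03% and 57.17% with the 75th percentile.

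Of the measured carriers, 135 were well above background on all 4 arrays. At the edge of the measured set, 5 carriers were well above background on both WGP arrays and neither medium array (Slc22a4, Slc6a9, Slc26a2, Slc39a14 and Slc23a2), and 7 on both medium arrays and neither WGP array (among them Slc13a2, Slc18b1, Slc25a42, Slc25a10, Slc28a2b and Slc25a41). Such genes entered only through the group in which they were high, so their difference is given as a lower bound. Their adjusted p was computed on the fitted levels, those not above background included, and does not test the bound. Those called are part of the counts and shares given here. With only probes above background on every array, 45 of 136 carriers were called higher and 27 lower, against 2564 and 1834 of 9881 genes. Just outside the measured set, Slc14a2, Slc25a18, Slc28a3, Slc35f1, Slc35g1 and Slc35g2 were well above background on 2 arrays, but not on both of 1 group. Another 20 carriers were so on 1 array and 119 on none, among these last the zinc carriers Slc39a8 and Slc30a10 and the magnesium carrier Slc41a1.

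**Figure D1:**
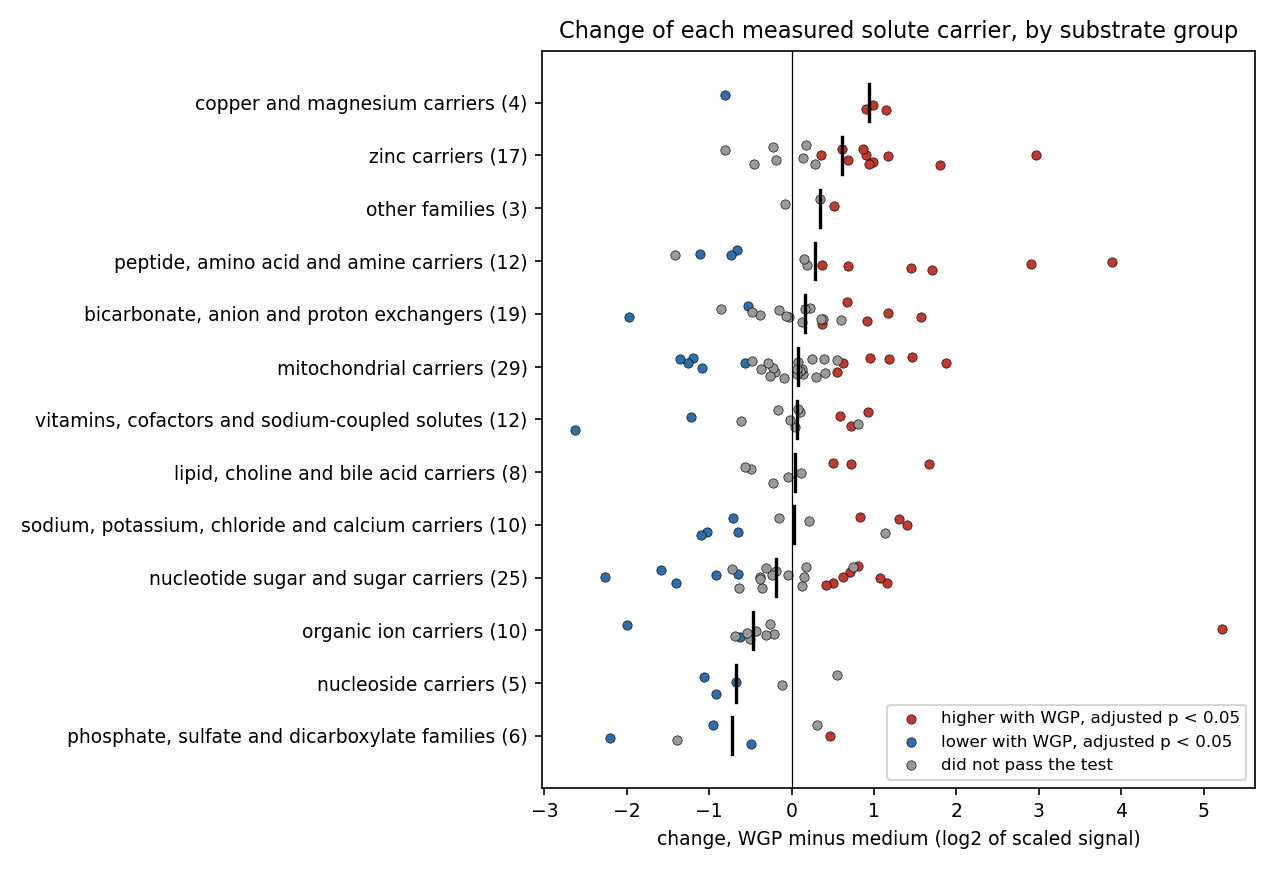
Change of every measured carrier (x axis, log2, WGP minus medium) in 13 groups by substrate or family (y axis, number measured in parentheses), 1 point per gene. Red points were called higher with WGP, blue points lower and grey points did not pass the test, and the black bars are medians, which run from 0.94 for the copper and magnesium carriers to −0.72 for the phosphate, sulfate and dicarboxylate families.

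Zinc carriers form 2 families. Slc30 proteins move zinc out of the cytosol, either out of the cell or into vesicles and the Golgi, and Slc39 proteins move it into the cytosol. Of 24 zinc carriers with a named probe 17 were measured, and 10 of the 17 (58.8%, against 23.2% of all genes) rose with WGP while 0 were called lower (against 17.4%). Their median change was 0.61, and it was positive under each of the other scalings and background corrections tried, which gave 7 to 11 higher calls and 0 or 1 lower. With only probes above background on every array, 7 of 13 were called higher and 0 lower (2564 and 1834 of 9881 over all genes), with a median of 0.36. Without a filter on dim probes, where many more genes entered the adjustment, 3 of 17 were called higher and 0 lower (895 and 637 of 20274 over all genes).

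Slc39a4, a zinc importer of the plasma membrane, had the largest rise of the group. Its levels were 2.35 and 2.40 with WGP, against −0.55 and −0.65 in medium, a change of 2.97 (SE 0.10, adjusted p = 0.00129) or 7.85-fold. Slc30a1, which exports zinc across the plasma membrane and whose gene is a textbook target of the zinc-sensing transcription factor Mtf1, had levels of −1.03 and −1.10 with WGP, against −2.84 and −2.90 in medium. Its change was 1.80 (SE 0.10, adjusted p = 0.00178), with only 1 of the 2 medium arrays well above background. In both genes every WGP array lay far above every medium array.

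The other importers that rose were Slc39a14, Slc39a7, Slc39a13, Slc39a6 and Slc39a1. Slc39a14, which also carries iron and manganese, was at least 2.05-fold higher with WGP (adjusted p = 0.036). Slc39a7 and Slc39a13, which release zinc from the secretory pathway into the cytosol, changed by 0.94 (SE 0.13, adjusted p = 0.00916) and 0.91 (SE 0.11, adjusted p = 0.00817). Slc39a6 of the plasma membrane stood at 0.74 and 0.73 with WGP, against −0.13 on both medium arrays, a change of 0.86 (adjusted p = 0.00564). Slc39a1, another plasma membrane importer, stood at 5.71 and 5.54 with WGP, against 4.92 and 5.11 in medium, a change of 0.61 (adjusted p = 0.0255).

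Carriers that load vesicles and the Golgi with zinc were called too. Slc30a4, which loads vesicles, changed by 0.99 (adjusted p = 0.017), Slc30a6 of the Golgi by 0.69 (adjusted p = 0.0492) and Slc30a7 of the Golgi by 0.36 (adjusted p = 0.0464). The 7 zinc carriers that did not pass the test had changes of 0.29 (Slc39a3), 0.18 (Slc39a9), 0.15 (Slc30a5), −0.19 (Slc39a11), −0.23 (Slc30a9), −0.46 (Slc39a10) and −0.80 (Slc39a2), with adjusted p from 0.0692 to 0.312. A second probe of Slc30a9 gave 0.94.

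Without WGP replicate 1, WGP replicate 2 and medium replicate 1 in turn, 5, 5 and 6 of the zinc carriers were called higher, and the calls of Slc39a4, Slc30a1, Slc39a7, Slc39a13 and Slc39a6 held without any 1 array, whereas those of Slc39a14 (adjusted p up to 0.113), Slc30a4 (0.0677), Slc30a6 (0.163), Slc39a1 (0.114) and Slc30a7 (0.204) did not. Replicates 1 and 2 were each a slide, and with the slide as a block 8 zinc carriers were higher and 2 lower, since Slc39a14 (adjusted p = 0.0501) and Slc30a7 (adjusted p = 0.0805) were lost and Slc39a10 (adjusted p = 0.046) and Slc39a2 (adjusted p = 0.026) passed as lower.

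**Figure D2:**
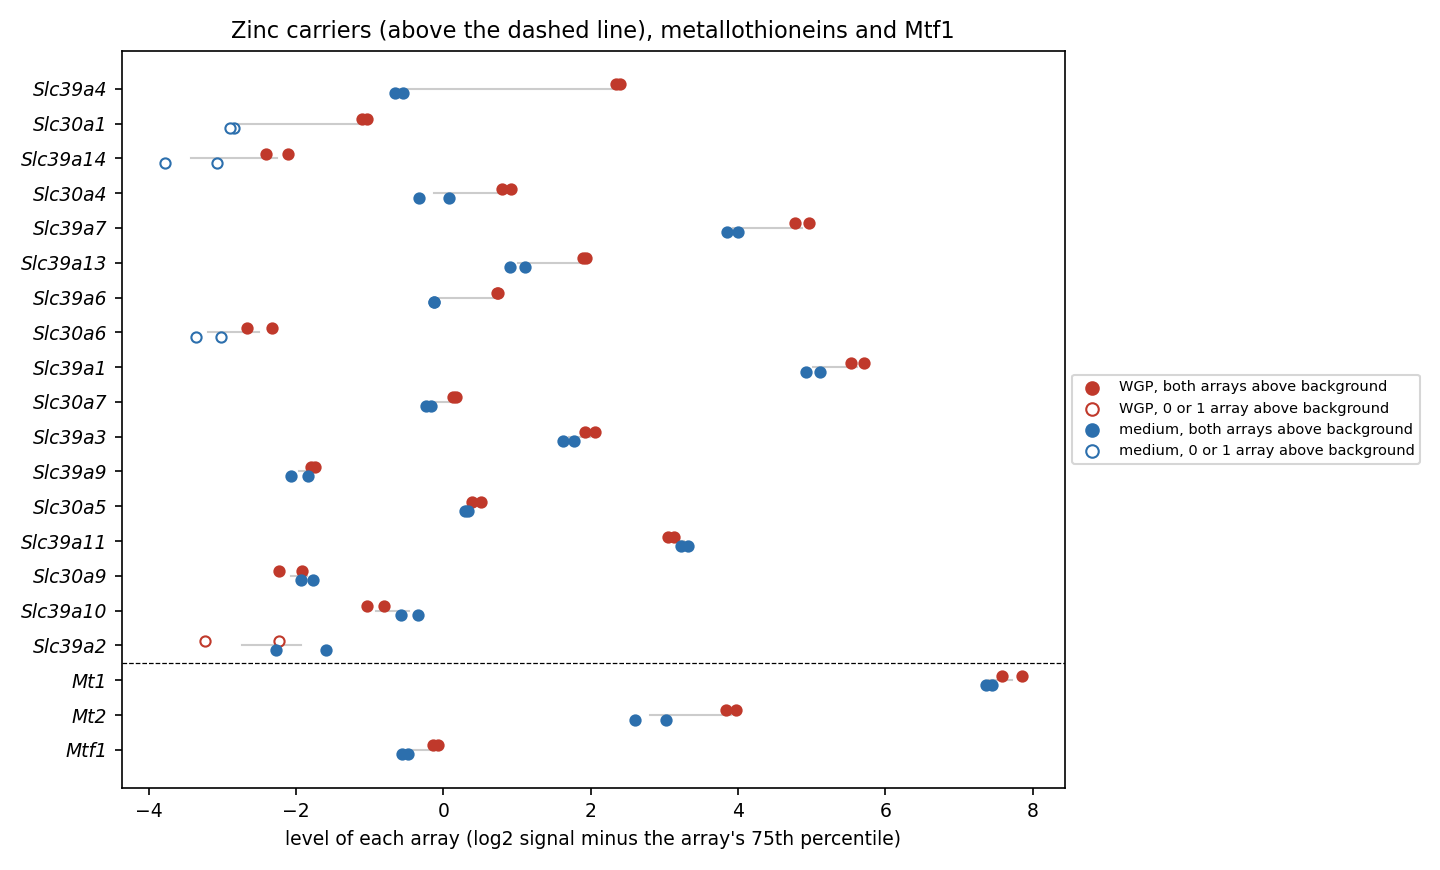
Level on each of the 4 arrays (x axis, log2 signal minus the array's 75th percentile) of the 17 measured zinc carriers, in order of their change, and of Mt1, Mt2 and Mtf1 below the dashed line. Red points are WGP arrays and blue points medium arrays, open where fewer than 2 arrays of the group were well above background, and the grey line joins the group means. Slc39a4 and Slc30a1 show the widest gaps, at 2.97 and 1.80.

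Metallothioneins are small zinc- and copper-binding proteins of the cytosol whose genes respond to zinc through Mtf1. Mt2 stood at 3.97 and 3.84 with WGP, against 3.02 and 2.60 in medium, a rise of 1.10 (SE 0.18, adjusted p = 0.0137). Mt1 stood at 7.85 and 7.59 with WGP, against 7.45 and 7.36 in medium, a difference of 0.31 that did not pass the test (adjusted p = 0.13). Mtf1 itself rose by 0.42 (SE 0.10, adjusted p = 0.0334).

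Mtf1 binds the metal response element, whose core is TGCACNC or TGCGCNC. The 250 bases before the start of 5 genes are shown, from RefSeq on GRCm38.p6 and 5′ to 3′ on the gene's strand, to set the zinc exporter Slc30a1, the vesicle loader Slc30a4 and both metallothioneins beside Slc22a4, an organic cation carrier that rose. Capitals mark a core on either strand.
Slc30a1, chr1:191906531-191906780, plus strand: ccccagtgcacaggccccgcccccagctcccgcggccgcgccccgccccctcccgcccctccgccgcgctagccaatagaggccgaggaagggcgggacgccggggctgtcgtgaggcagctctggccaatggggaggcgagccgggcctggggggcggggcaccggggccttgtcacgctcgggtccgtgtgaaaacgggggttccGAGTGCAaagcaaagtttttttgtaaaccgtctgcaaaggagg
Slc30a4, chr2:122702664-122702913, minus strand: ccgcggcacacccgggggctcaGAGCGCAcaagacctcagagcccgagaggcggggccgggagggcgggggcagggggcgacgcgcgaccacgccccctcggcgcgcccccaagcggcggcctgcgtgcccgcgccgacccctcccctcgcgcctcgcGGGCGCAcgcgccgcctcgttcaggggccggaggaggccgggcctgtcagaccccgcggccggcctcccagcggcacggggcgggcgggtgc
Mt2, chr8:94172368-94172617, plus strand: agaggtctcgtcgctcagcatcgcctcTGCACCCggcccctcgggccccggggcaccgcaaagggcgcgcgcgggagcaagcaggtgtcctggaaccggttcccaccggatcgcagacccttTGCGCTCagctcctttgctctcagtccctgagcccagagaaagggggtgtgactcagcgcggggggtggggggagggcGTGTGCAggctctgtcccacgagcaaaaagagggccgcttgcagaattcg
Mt1, chr8:94178839-94179088, plus strand: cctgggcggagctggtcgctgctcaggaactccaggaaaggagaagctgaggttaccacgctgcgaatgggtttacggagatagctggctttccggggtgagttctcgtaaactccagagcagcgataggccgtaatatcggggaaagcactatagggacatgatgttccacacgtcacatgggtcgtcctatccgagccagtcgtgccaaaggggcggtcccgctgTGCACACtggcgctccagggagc
Slc22a4, chr11:54028105-54028354, minus strand: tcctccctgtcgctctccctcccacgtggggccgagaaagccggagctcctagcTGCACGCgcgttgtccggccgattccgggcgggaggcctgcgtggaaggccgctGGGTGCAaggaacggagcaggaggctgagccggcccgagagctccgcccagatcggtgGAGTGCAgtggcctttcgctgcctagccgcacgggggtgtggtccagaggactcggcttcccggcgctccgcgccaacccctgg
In these windows Slc30a1 held 1 core, which began at −43, counted from the gene's start, on the opposite strand, and Slc30a4 held 2, at −228 and −92, on that strand too. Mt2 held 3, Mt1 held 1 and Slc22a4 held 3. Slc46a3, the carrier with the largest fall, is not shown and held 1 core in the same window, at −121 on the opposite strand. A core of either spelling on either strand, each gene counted once and overlapping matches allowed, was in 23.8% of the 27025 genes with a promoter entry and in 32.6% of the 8810 tested genes with one. It was in 16 of 36 carriers that rose (44.4%), 9 of 24 that fell (37.5%) and 21 of 64 that did not pass the test (32.8%). Among zinc carriers it was in 5 of 14 measured (35.7%) and 2 of the 7 that rose and had an entry (28.6%). These 2 are Slc30a1 and Slc30a4, the zinc carriers shown above. Slc39a1, Slc39a7, Slc39a13, Slc30a6 and Slc30a7 rose too and held no core in this window. A match describes letters in this window and not a bound site, and no test was made of these shares.

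All 4 measured copper and magnesium carriers changed, 3 upward and 1 downward (75% and 25%, against 23.2% and 17.4% of all genes). Slc31a1, the high-affinity copper importer of the plasma membrane, stood at 3.63 and 3.54 with WGP, against 2.69 and 2.68 in medium, a rise of 0.90 (SE 0.10, adjusted p = 0.00573). Slc31a2, its relative of endosomes and lysosomes, stood at 1.67 and 1.71 with WGP, against 0.53 and 0.56 in medium, a rise of 1.14 (SE 0.09, adjusted p = 0.00341). The groups were far apart in both, and a second probe of Slc31a2 gave 1.34. Of the magnesium carriers Slc41a2 rose by 0.99 (SE 0.14, adjusted p = 0.0105) and the mitochondrial Slc41a3 fell by 0.81 (SE 0.15, adjusted p = 0.0206). Leaving out either WGP array ended the call of Slc41a3 (adjusted p = 0.0812 without replicate 1 and 0.0701 without replicate 2). Among the other metal handling genes, Atox1, the cytosolic copper chaperone, rose by 0.81 (adjusted p = 0.0117). With Mt2 and Mtf1 there were thus 3 higher and 0 lower of 8 measured, where 40.6% of all genes were called.

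The Slc25 family carries metabolites, nucleotides and cofactors across the inner mitochondrial membrane. Of 46 members with a named probe 29 were measured, 6 rose and 5 fell, a share of calls (37.9%) near the 40.6% of all genes. Their median change was 0.08, and it was below 0 with quantile normalization (−0.05 on processed signals and −0.03 after another background correction).

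Slc25a37 brings iron into mitochondria for heme and iron-sulfur synthesis, and it rose most in the family. Its levels were 3.68 and 3.82 with WGP, against 1.90 and 1.85 in medium, a change of 1.88 (SE 0.10, adjusted p = 0.00186), and a second probe gave 1.59. Its close relative Slc25a28 had a change of −0.20 that did not pass the test (adjusted p = 0.171). Slc25a33, a pyrimidine nucleotide carrier, stood at −1.01 and −0.91 with WGP, against −2.64 and −2.22 in medium, a rise of 1.47 (adjusted p = 0.00696).

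Of the ADP/ATP carriers, Slc25a5 stood at 1.45 and 1.74 with WGP, against 0.55 and 0.26 in medium, a rise of 1.19 (SE 0.17, adjusted p = 0.0105), while Slc25a4 stood at 5.29 and 5.14 with WGP, against 5.14 on both medium arrays, with a change of 0.08 (adjusted p = 0.58). The difference between the 2 genes was not tested. Slc25a32, a carrier of folate and flavin cofactors, rose by 0.95 (adjusted p = 0.00806), Slc25a26, the carrier of S-adenosylmethionine, by 0.62 (adjusted p = 0.0202), and Slc25a25, a calcium-regulated carrier of ATP-magnesium and phosphate, by 0.56 (adjusted p = 0.0258), with −0.14 on its other probe.

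The falls included Slc25a23, another calcium-regulated ATP-magnesium carrier. It stood at −2.57 and −2.00 with WGP, against −0.99 and −0.89 in medium, a change of −1.35 (SE 0.22, adjusted p = 0.0142). Slc25a42, which carries coenzyme A, was at least 2.39-fold lower (adjusted p = 0.00412), and the dicarboxylate carrier Slc25a10 at least 1.85-fold lower (adjusted p = 0.0156). Slc25a45 fell by 1.08 (adjusted p = 0.0267) and Slc25a12, an aspartate-glutamate carrier, by 0.57 (adjusted p = 0.0163). Well-known members that did not pass the test were the citrate carrier Slc25a1 at 0.13, the phosphate carrier Slc25a3 at 0.06, the oxoglutarate carrier Slc25a11 at 0.30 and the aspartate-glutamate carrier Slc25a13 at −0.27.

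Leaving out 1 array ended the calls of Slc25a26, Slc25a25, Slc25a12, Slc25a45, Slc25a10 and Slc25a23. Their highest adjusted p values were 0.0924 (Slc25a26, without WGP replicate 2), 0.114 (Slc25a25, without WGP replicate 2), 0.0949 (Slc25a12, without WGP replicate 1), 0.0891 (Slc25a45, without WGP replicate 2), 0.0701 (Slc25a10, without medium replicate 2) and 0.0663 (Slc25a23, without medium replicate 2). The change of Slc25a10 was 0.05 (adjusted p = 0.682) with normexp background correction, which models each spot as signal plus background, where its sign turned. With that correction and 75th percentile scaling the call of Slc25a42 was lost (adjusted p = 0.267).

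Outside the family, the outer membrane pores Vdac2 and Vdac3 rose by 0.90 (adjusted p = 0.00849) and 0.77 (adjusted p = 0.0203), and Ucp2, an inner membrane carrier related to Slc25 proteins, fell by 1.19 (adjusted p = 0.0106). Both subunits of the mitochondrial pyruvate carrier, Mpc1 and Mpc2, were measured and did not pass the test.

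**Figure D3:**
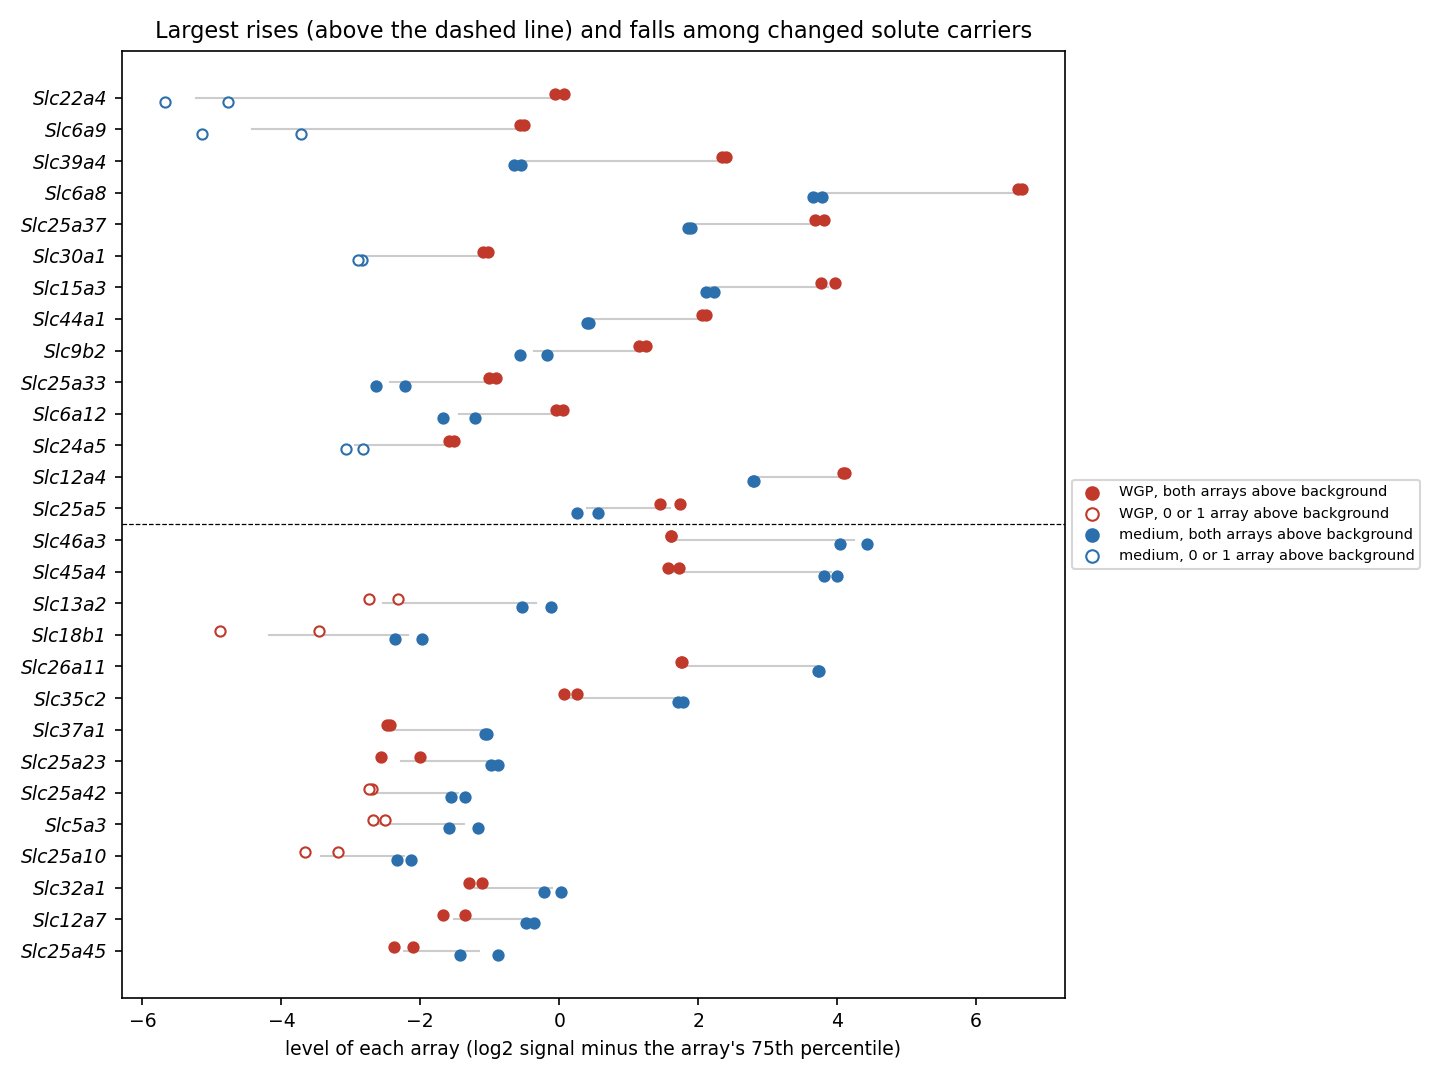
Levels on each of the 4 arrays (x axis, log2 signal minus the array's 75th percentile) for the 14 carriers with the largest called rises by fitted change, above the dashed line, and the 14 with the largest called falls, below it. Red points are WGP arrays and blue points medium arrays, open where fewer than 2 arrays of the group were well above background, so that the gaps of Slc22a4 and Slc13a2, for example, are measured against signals that were not above background.

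The amino acid, peptide and amine carriers held 6 rises and 3 falls among 12 measured (50% and 25%, against 23.2% and 17.4% of all genes), with a median change of 0.28 that was positive under every scaling tried. With only probes above background on every array, 5 of 10 were called higher and 3 lower (2564 and 1834 of 9881 over all genes). Without a filter on dim probes, 4 of 12 were called higher and 1 lower (895 and 637 of 20274 over all genes). Slc6a9, the glycine carrier best known from glial cells, was at −0.51 and −0.56 with WGP, against −3.71 and −5.14 in medium, where neither array was well above background. It was at least 6.77-fold higher with WGP (adjusted p = 0.00854). Slc6a8, the creatine carrier, stood at 6.66 and 6.60 with WGP, against 3.65 and 3.79 in medium, a rise of 2.91 (SE 0.10, adjusted p = 0.00129) or 7.51-fold. Slc6a12, which carries betaine and GABA, stood at −0.04 and 0.05 with WGP, against −1.67 and −1.21 in medium, a rise of 1.45 (adjusted p = 0.00847). By contrast the taurine carrier Slc6a6 fell by 0.66 (SE 0.09, adjusted p = 0.0103), with levels of 6.01 and 6.05 with WGP, against 6.69 on both medium arrays.

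Slc15a3 and Slc15a4 are proton-coupled carriers of endosomes and lysosomes that bring histidine and bacterial peptides of the cell wall to cytosolic sensors, and they changed in opposite directions. Slc15a3 stood at 3.77 and 3.98 with WGP, against 2.22 and 2.11 in medium, a rise of 1.70 (SE 0.12, adjusted p = 0.00279). Slc15a4 stood at 4.34 and 4.32 with WGP, against 5.17 and 4.96 in medium, a fall of 0.73 (SE 0.12, adjusted p = 0.0131). In each gene the WGP arrays lay entirely on one side of the medium arrays. The proton-coupled amino acid carriers Slc36a4 and Slc36a1 rose by 0.69 (adjusted p = 0.0121) and 0.37 (adjusted p = 0.0498), and Slc32a1, the vesicular carrier of GABA and glycine in neurons, fell by 1.11 (adjusted p = 0.00817).

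The calls of Slc6a6, Slc15a4 and Slc36a4 were lost without WGP replicate 2 (adjusted p = 0.0568, 0.0641 and 0.0673), and the first pair also without WGP replicate 1 (0.0635 and 0.0609). That of Slc36a1 was lost without any 1 of the 4 arrays (adjusted p up to 0.226) and with the slide as a block (adjusted p = 0.0834), and its other probe gave −0.05.

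Slc22a4, a carrier of the antioxidant ergothioneine and of organic cations, had the highest lower bound of the 5 carriers that were above background with WGP alone. Its levels were −0.06 and 0.06 with WGP, against −5.68 and −4.77 in medium, where neither array was well above background. It was at least 9.83-fold higher with WGP (adjusted p = 0.00225). Of the 10 measured organic ion carriers it alone was called higher (10%, against 23.2% of all genes). Another 2 were called lower (20%, against 17.4%), and the median change was −0.47. Slc22a5, the carnitine carrier of the same family, had a change of −0.26 that did not pass the test (adjusted p = 0.159). Slc18b1, a vesicular polyamine carrier, was at least 2.24-fold lower (adjusted p = 0.0432), and Slc22a13 fell by 0.63 (adjusted p = 0.0492). Both calls were lost without medium replicate 2 (adjusted p = 0.116 and 0.123), that of Slc18b1 also without medium replicate 1 (0.149), and that of Slc22a13 also without WGP replicate 1 (0.171) or WGP replicate 2 (0.0917). With the slide as a block, Slc22a17 (adjusted p = 0.0432) and Slc22a6 (adjusted p = 0.0496) passed as lower too.

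Nucleotide sugar carriers of the Slc35 family bring activated sugars and other nucleotides into the Golgi and endoplasmic reticulum for glycosylation, and Slc37 and Slc45 proteins carry sugar phosphates and sugars. Of 25 measured members of these families and of Slc50, 7 rose and 5 fell (28% and 20%, against 23.2% and 17.4% of all genes), with a median change of −0.19. The rises were all in Slc35, where 7 of 18 measured members rose and 2 fell (38.9% and 11.1%).

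Slc35b1, which exchanges ATP for ADP across the membrane of the endoplasmic reticulum, stood at 4.30 and 4.29 with WGP, against 3.01 and 3.28 in medium, a rise of 1.15 (SE 0.13, adjusted p = 0.00665). Slc35a3, a carrier of UDP-N-acetylglucosamine, stood at 1.40 and 1.44 with WGP, against 0.45 and 0.24 in medium, a rise of 1.08 (SE 0.12, adjusted p = 0.00592), with 0.52 on its other probe. Slc35d1, which carries UDP-glucuronic acid and UDP-N-acetylgalactosamine, rose by 0.80 (adjusted p = 0.00827), and Slc35b4, which carries UDP-xylose and UDP-N-acetylglucosamine, by 0.50 (adjusted p = 0.0342). Slc35e4, Slc35f6 and Slc35e1, whose substrates are less well known, rose by 0.71, 0.63 and 0.42.

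The largest fall of these families was that of Slc45a4, with levels of 1.56 and 1.72 with WGP, against 3.997 and 3.82 in medium. Its change was −2.26 (SE 0.12, adjusted p = 0.00183), or 4.80-fold lower. Slc35c2, a Golgi protein of the GDP-fucose carrier subfamily, stood at 0.25 and 0.07 with WGP, against 1.78 and 1.71 in medium, a fall of 1.59 (SE 0.11, adjusted p = 0.00275), while the GDP-fucose carrier Slc35c1 had a change of −0.19 that did not pass the test. The sugar phosphate carriers Slc37a1 and Slc37a3 fell by 1.40 (SE 0.09, adjusted p = 0.00241) and 0.92 (SE 0.10, adjusted p = 0.00574), whereas Slc37a2, at 0.17, and the glucose-6-phosphate carrier Slc37a4, at −0.05, did not pass the test. Slc35e2 fell by 0.65 (adjusted p = 0.0196). With normexp background correction and 75th percentile scaling the call of Slc37a1 was lost (adjusted p = 0.145).

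Leaving out 1 array ended the calls of Slc35e4 (adjusted p up to 0.056, without WGP replicate 1), Slc35f6 (0.0911, without WGP replicate 2), Slc35b4 (0.153, without WGP replicate 1), Slc35e1 (0.154, without WGP replicate 1) and Slc35e2 (0.0913, without WGP replicate 1). With the slide as a block Slc35e1 was lost (adjusted p = 0.0537) and Slc35g3 passed as lower (adjusted p = 0.0254).

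Carriers of vitamins, cofactors and sodium-coupled solutes gave 3 rises and 2 falls among 12 measured, or 41.7% called, against 40.6% of all genes. Slc46a3, a lysosomal carrier of the proton-coupled folate carrier family, had the largest fall of all measured carriers. It stood at 1.61 on both WGP arrays, against 4.44 and 4.04 in medium, a change of −2.63 (SE 0.16, adjusted p = 0.00222) or 6.19-fold lower. Its relative Slc46a1, the proton-coupled folate carrier, had a change of 0.08 that did not pass the test (adjusted p = 0.53). Slc5a3, which takes up myo-inositol with sodium, fell by 1.22 (adjusted p = 0.0119) on a probe that was well above background on 1 of the 2 WGP arrays, and its other probe gave 0.09. Slc23a2, which takes up ascorbate, was at least 1.67-fold higher with WGP (adjusted p = 0.0236), and Slc33a1, the acetyl-coenzyme A carrier of the endoplasmic reticulum, rose by 0.73 (adjusted p = 0.0197) and the riboflavin carrier Slc52a2 by 0.59 (adjusted p = 0.0313). The calls of these 3 were lost without WGP replicate 2 (adjusted p = 0.0762, 0.0792 and 0.0975), that of Slc23a2 also without medium replicate 1 (0.0771), that of Slc33a1 also without WGP replicate 1 (0.0772) and that of Slc52a2 also without WGP replicate 1 (0.124) or medium replicate 2 (0.075).

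Exchangers of bicarbonate, chloride, sulfate and protons set the pH of the cytosol and of endosomes. Of 19 measured, 5 rose and 2 fell (26.3% and 10.5%, against 23.2% and 17.4% of all genes), with a median change of 0.16. Counted among the 19 were Slc9a3r1, Slc9a3r2 and Slc4a1ap, which are not carriers themselves and did not pass the test. Slc9b2, a sodium-proton exchanger, stood at 1.25 and 1.14 with WGP, against −0.56 and −0.18 in medium, a rise of 1.57 (SE 0.16, adjusted p = 0.00542). The sulfate carriers differed in direction. Slc26a2 of the plasma membrane was at least 1.85-fold higher with WGP (adjusted p = 0.00916), whereas Slc26a11 stood at 1.75 and 1.77 with WGP, against 3.72 and 3.74 in medium, a fall of 1.97 (SE 0.09, adjusted p = 0.00147) or 3.92-fold.

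Slc4a7, which brings in sodium and bicarbonate, rose by 0.91 (adjusted p = 0.0136), the anion exchanger Slc26a6 by 0.68 (adjusted p = 0.0168) and the chloride-bicarbonate exchanger Slc4a2 by 0.37 (adjusted p = 0.045), and the Golgi sodium-proton exchanger Slc9a7 fell by 0.53 (adjusted p = 0.0492). Leaving out 1 array ended the calls of Slc4a7 (adjusted p = 0.0599, without WGP replicate 2), Slc26a6 (up to 0.0836, without WGP replicate 1), Slc4a2 (up to 0.199, without WGP replicate 2) and Slc9a7 (up to 0.174, without WGP replicate 1). The slide as a block ended those of Slc4a2 (adjusted p = 0.0702) and Slc9a7 (adjusted p = 0.0618), and another kept probe of Slc26a6 gave −0.15. In the fixed list of other exporters and channels, Hvcn1, the voltage-gated proton channel of phagocytes, rose by 2.31 (SE 0.09, adjusted p = 0.00129).

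Potassium-chloride cotransporters move salt out of the cell and Slc12a2 moves sodium, potassium and chloride in. Slc12a4 stood at 4.09 and 4.12 with WGP, against 2.80 on both medium arrays, a rise of 1.30 (SE 0.09, adjusted p = 0.0027). Its relative Slc12a7 stood at −1.68 and −1.36 with WGP, against −0.36 and −0.47 in medium, a fall of 1.10 (SE 0.15, adjusted p = 0.00937), so these cotransporters changed in opposite directions. Slc12a2 rose by 0.83 (adjusted p = 0.0492) and Slc12a9 fell by 1.02 (adjusted p = 0.011). With normexp background correction and 75th percentile scaling the call of Slc12a9 was lost.

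Slc24a5, a potassium-dependent sodium-calcium exchanger best known from melanosomes, stood at −1.58 and −1.52 with WGP, against −3.07 and −2.82 in medium, where 1 array was well above background, a rise of 1.40 (adjusted p = 0.00427). The sodium-calcium exchanger Slc8a3 stood at 6.04 and 6.34 with WGP, against 6.77 and 7.04 in medium, a fall of 0.71 (adjusted p = 0.034), with −0.01 on its other probe. Among the 10 measured carriers of sodium, potassium, chloride and calcium there were thus 3 rises and 4 falls, or 30% and 40%, against 23.2% and 17.4% of all genes. The calls of Slc12a2 (adjusted p up to 0.142) and Slc8a3 (0.121) were lost without WGP replicate 1, and each was also lost without WGP replicate 2 (0.119 and 0.0549). Slc12a2 was also lost without medium replicate 2 (0.0604) and Slc8a3 without medium replicate 1 (0.0555) or 2 (0.112). Slc24a3, at 1.13 (adjusted p = 0.0827), did not pass, but it passed with the slide as a block (adjusted p = 0.0117), and its limma adjusted p ran from 0.0111 to 0.258 over the settings tried.

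Of the 6 measured members of the phosphate, sulfate and dicarboxylate families, 1 rose and 3 fell (16.7% and 50%, against 23.2% and 17.4% of all genes). Slc13a2, which takes up citrate and other dicarboxylates with sodium, was at −2.74 and −2.32 with WGP, where neither array was well above background, against −0.12 and −0.54 in medium, and was at least 4.60-fold lower (adjusted p = 0.0052). Slc17a9, the vesicular carrier of ATP, fell by 0.95 (SE 0.09, adjusted p = 0.00505). The lysosomal sialic acid carrier Slc17a5 stood at 7.04 and 7.23 with WGP, against 7.52 and 7.72 in medium, a fall of 0.49 (adjusted p = 0.0466), with next to no difference on its other probe, and the phosphate carrier Slc20a1 rose by 0.47 (adjusted p = 0.0346). The calls of Slc17a5 and Slc20a1 were lost without any 1 of the 4 arrays, at adjusted p up to 0.188 and 0.165.

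Nucleoside carriers gave 0 rises and 3 falls among 5 measured (0% and 60%, against 23.2% and 17.4% of all genes). Slc29a1, the equilibrative carrier of the plasma membrane, stood at 1.30 and 1.50 with WGP, against 2.36 and 2.29 in medium, a fall of 0.92 (SE 0.12, adjusted p = 0.00826). The concentrative carrier Slc28a2 fell by 0.68 (adjusted p = 0.0108), and its near copy Slc28a2b was at least 1.98-fold lower (adjusted p = 0.035). Whether their probes tell the 2 genes apart was not tested. Slc29a3, the lysosomal member, had a change of 0.55 that did not pass the test (adjusted p = 0.099). The calls of Slc28a2 and Slc28a2b were lost without WGP replicate 1 (adjusted p = 0.0501 and 0.0717) or WGP replicate 2 (0.0652 and 0.112), and that of Slc28a2b also without medium replicate 2 (0.064). With normexp background correction the change of Slc28a2 was 0.04 (adjusted p = 0.743), where its sign turned.

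Among carriers of lipids, choline and bile acids 3 of 8 rose and 0 fell (37.5% and 0%, against 23.2% and 17.4% of all genes). Their median change of 0.04 was below 0 with quantile normalization (−0.15) and with normexp background correction under either scaling (−0.01 and −0.06). Slc44a1, a choline carrier, stood at 2.06 and 2.11 with WGP, against 0.42 and 0.40 in medium, a rise of 1.67 (SE 0.09, adjusted p = 0.00187), and the lowest of its kept probes gave 0.70. Slc27a1, which brings in fatty acids, rose by 0.72 (adjusted p = 0.013) and Slc10a3 by 0.51 (adjusted p = 0.0288). Slc10a1, known as the bile acid carrier of liver cells, stood at 11.24 and 11.32 with WGP, against 11.26 and 11.08 in medium, with a change of 0.11 (adjusted p = 0.477) and overlapping groups. Only 1 of its 2 named probes was kept, so this level rests on 1 probe that the other did not match. The calls of Slc27a1 and Slc10a3 were lost without WGP replicate 1 (adjusted p = 0.0561 and 0.14) or WGP replicate 2 (0.067 and 0.0752), and that of Slc10a3 also without medium replicate 1 (0.0684) or 2 (0.096). Of the remaining families 3 genes were measured, of which Slc66a2 rose by 0.51 (adjusted p = 0.0319), a call lost without WGP replicate 1 (0.113), WGP replicate 2 (0.132) or medium replicate 1 (0.0788).

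Transport genes outside the Slc symbols were taken as a fixed set of 51 genes, of which 44 were measured. Of these, 15 rose and 7 fell, where 23.2% of all genes were called higher and 17.4% lower. Of the organic anion carriers Slco2b1, which takes up steroid sulfates and drugs, stood at −1.91 and −1.86 with WGP, against 1.83 and 1.41 in medium, a fall of 3.50 (SE 0.17, adjusted p = 0.0016), and Slco3a1 rose by 0.56 (adjusted p = 0.0248). Other carriers and channels that rose were the lysosomal cation channel Mcoln2 by 2.01, the Golgi manganese and calcium carrier Tmem165 by 1.20, the heme exporter Flvcr1 by 1.03 and the lysosomal lipid carrier Spns1 by 0.68. Cnnm2, a protein of magnesium transport, fell by 1.45 and the pyrophosphate and ATP exporter Ank by 0.80.

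ATP-driven exporters gave 3 rises and 3 falls among 10 measured, where 23.2% of all genes were called higher and 17.4% lower. The exporters of glutathione conjugates and cyclic nucleotides Abcc1, Abcc5 and Abcc4 rose by 1.50, 1.12 and 0.72. The drug exporters Abcg2 and Abcb1b fell by 1.26 and 1.14, and the cholesterol exporter Abcg1 fell by 0.44.

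**Figure D4:**
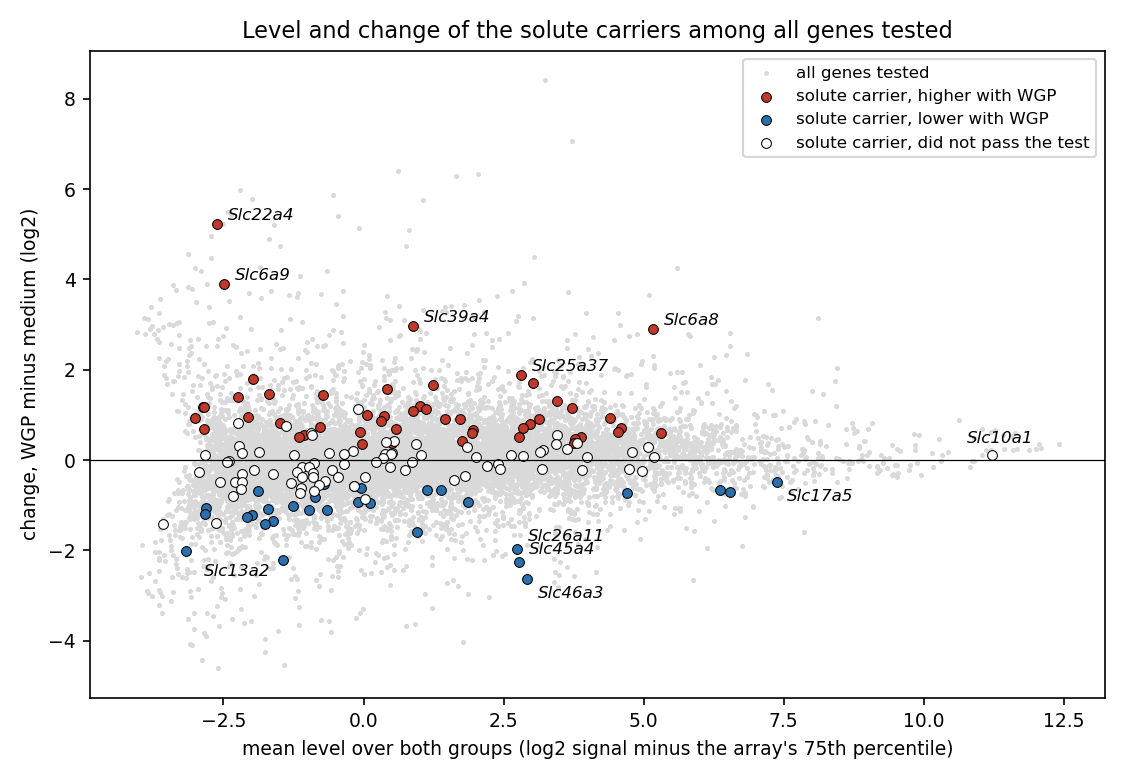
Mean level over both groups (x axis, log2 signal minus the array's 75th percentile) and change (y axis, log2, WGP minus medium) of the 10947 genes tested, in grey, with the 160 measured carriers on top, 1 point per gene. Red carriers were called higher with WGP, blue ones lower and white ones did not pass the test, and the lowest is Slc46a3 at −2.63. Points of carriers not above background in 1 group, such as Slc22a4, sit at their fitted change, which is no measured fold.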

How the data were processed

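RNA of 6 samples (3 deposited files a group) was measured on 1-colour (Cy3) Agilent arrays, and the submitters' processing notes name Agilent Feature Extraction 10.7.3. Spot intensities were used, and per the file headers the authors' processed signal is background-subtracted and detrended, with no scaling between arrays. A deposited table of log2 values served as an alternative. Probe by probe, after centring, its correlation with the levels defined below was 0.9999. Its column medians were 0.0998, 0.13 and 0.1 for WGP replicates 1 to 3 and −0.0144, 0.164 and 0.103 for medium replicates 1 to 3, its direction matched, and the baseline of its centring is unknown.

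No use was made of 1377 control spots or of 118 to 183 outlier spots an array, and 0 spots were saturated. The level, log2 processed signal less the 75th percentile of its array, was the mean over a probe's spots. Through their accession, 26761 of 39429 probes were named in a RefSeq table of GRCm38.p6. The array design is on another build, so no probe or gene coordinates are given; the promoter windows are RefSeq's on GRCm38.p6. Of several kept probes of a gene the brightest stood for it. Of the called carriers, 20 had several kept probes, and 4 of these held a probe of the other sign.

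The test was limma's (version 3.58.1, R 4.3.3, lmFit with eBayes, 2 residual and 2.19 prior degrees of freedom), with Benjamini-Hochberg adjustment over the 10947 genes and a threshold of 0.05. Every adjusted p given comes from limma, without a covariate unless the slide is named as a block. Only 2 arrays a group limit the precision. Over genes, replicate arrays differed with an SD of 0.367 with WGP and 0.39 in medium, and the groups with an SD of 0.869. The test was tried on simulated arrays. A lower bound sets the bright group's mean against, per dim array, the lowest level seen there in probes well above background, or the dim probe's own where that is higher. Named were the 20 largest rises and 20 largest falls, each group's largest rise, largest fall and brightest member, every measured zinc carrier, and every changed gene of the other transport lists. Some genes that this rule names are not reported here. Brightness only chose genes to name, since levels of different probes cannot be compared.

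Per the file headers, replicates 1 and 2 were each a slide and a scan, with a WGP and a medium array on both. Deviations from the group means correlated at 0.14 between arrays of a slide, over 2 pairs. Blocking on the slide was among the alternatives. Carriers, lists and the promoter motif were chosen with earlier results of these data known.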

Additional observations from a re-analysis of the deposited data

How the results depend on the processing

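The carriers called (79 of 160) numbered 28 without a filter on dim probes, where many more genes entered the adjustment, 121 with every deposited file as its own sample, and 45 to 62 when 1 array was left out. Over all genes tested (4441) these counts were 1532, 7452 and 2257 to 3281, and for the other transport genes (22) they were 10 and 35 under the first 2 settings. The carriers' median change (0.0929) was 0.258 with array median scaling, 0.0037 with quantile normalization, 0.0553 and 0.00715 with normexp on the median signal and percentile or quantile scaling, 0.117 with only probes above background on every array, 0.102 with every file, 0.0855 with the mean of a gene's probes, 0.104 with the authors' deposited table and 0.0305 to 0.122 when 1 array was left out. With the slide as a replicate block, 79 carriers and 4090 genes were called, and 73 of the 79 calls were shared; the block changed no other call than the 6 lost and 6 gained ones. With normexp and percentile scaling, 64 carriers and 4172 genes were called, and of the 79 calls 56 held and 21 were lost. In that setting the signs of Slc28a2 (0.0379) and Slc25a10 (0.0518) turned. Their cause was not tested. Under 16 alternatives 26 of the 79 calls held wherever a value could be had, and 53 were lost at least once. The planned normexp correction on mean spot signals was not run, since mean spot signals were not at hand. The median signal took its place, chosen after seeing the data. Carriers near or below background limit the precision: 145 of 305 were not measured.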
